A study of Mus musculus with 4 samples.

Results

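Prodynorphin and 9 other neuropeptide precursors were followed in whole mouse islets held at low or high glucose. The 10 genes were *Pdyn*, *Penk*, *Npy*, *Cck*, *Gal*, *Tac1*, *Cartpt*, *Adcyap1*, *Vip* and *Nmb*, taken by symbol from a table that names 24157 genes. The symbols matched 14 entries, of which 11 were distinct, and for each gene the entry was selected on its mean RPKM over the 4 libraries (the highest was kept). *Pdyn* was chosen by its change between the glucose concentrations, so that change is given as a description with no test. The libraries were made from isolated islets of wild type male C57bl6 mice, 3 months old, and came from a single pool. All islets spent a night at 11 mM glucose and were then starved for 2 h at 2.8 mM glucose. One group stayed at 2.8 mM glucose and the other was moved to 16.8 mM glucose, with 2 libraries in each group. The design text gives 12 h for either concentration, whereas the treatment label reads 2 h for both libraries at 2.8 mM and 12 h for both at 16.8 mM, so the time at 2.8 mM glucose is uncertain.

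Neuropeptides are cut from larger precursor proteins inside secretory granules, first by prohormone convertases and then by enzymes that trim and amidate the ends, and they act through G protein-coupled receptors on the same or on neighbouring cells. In islets such peptides come from endocrine cells and from the nerve fibres that reach the islet, whose cell bodies mostly lie elsewhere. Prodynorphin yields the dynorphins and neoendorphins, which prefer the kappa opioid receptor, whereas proenkephalin yields enkephalins for the delta and mu receptors. In neurons the genes of several of these precursors are classic targets of cyclic AMP and CREB, a transcription factor that binds the cyclic AMP response element (CRE).

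The measurement was a deposited RPKM value (reads scaled to length and to library depth) for each transcript and library. The recovered depth was between 50790000 and 60690000 reads, and the reads behind each value were rebuilt from it, so that read numbers in the text are reconstructions. The values were taken to divide the reads by the genomic span of a gene, introns included. With the span, 98.0 to 98.5% of low values came out as whole reads (within 0.1 of a read), against 26.1 to 28.5% with the exon length. The depth was fitted to the spans and not fitted anew to the exon lengths, so the exon share is not an equal comparison. With the span as divisor, genes with long introns have low RPKM values. Only *Pdyn* and *Cartpt* reached a mean of 1 RPKM, the minimum for the main test (limma on log2(RPKM + 0.5)). For the others the test was voom, a limma fit on the log2 of RPM (reads scaled to library depth) weighted by precision, which took transcripts averaging 20 reads or more and thereby 8 of the 10 genes. In whole islets, fewer cells of a type and less RNA per cell cannot be told apart.

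The genes lie on 9 chromosomes, and the positions given here are those of NCBIM37. *Pdyn* is on the minus strand of chromosome 2 and has 2 annotated starts, 129525674 and 129524394, which are 1280 bases apart. *Cartpt* lies at chr13:100668439-100670638 on the minus strand, *Npy* at chr6:49772709-49779506 on the plus strand and *Nmb* at chr7:88047114-88049962 on the minus strand. *Vip* occupies chr10:4698927-4707323 and *Cck* chr9:121398943-121404807, both on the minus strand. *Gal* occupies chr19:3409919-3414472 and *Penk* chr4:4060678-4065966, also on the minus strand, and *Tac1* chr6:7505071-7512973 and *Adcyap1* chr17:93598762-93604825 on the plus strand. *Penk* shares 499 bases with *A830012C17Rik* on the opposite strand, and *Nmb* shares 188 bases with *Sec11a* on the same strand. Whether the counting used strand is not given in the sources used here, so reads in those stretches could belong to either gene.

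The RefSeq promoter sequences held entries for 9 of the 10 genes, all but *Penk*, and all 11 entries were found unchanged in NCBIM37. The 250 bases before each *Pdyn* start and before the *Cartpt* start are shown because these genes had the highest levels of the 10. The capitals mark the CRE, TGACGTCA, and all else is in lower case.
*Pdyn*, upstream start, chr2:129525675-129525924, minus strand: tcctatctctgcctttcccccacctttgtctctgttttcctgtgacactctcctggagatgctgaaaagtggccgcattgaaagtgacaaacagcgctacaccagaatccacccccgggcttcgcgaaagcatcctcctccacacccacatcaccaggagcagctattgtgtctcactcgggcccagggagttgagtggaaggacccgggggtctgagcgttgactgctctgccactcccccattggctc
*Pdyn*, downstream start, chr2:129524395-129524644, minus strand: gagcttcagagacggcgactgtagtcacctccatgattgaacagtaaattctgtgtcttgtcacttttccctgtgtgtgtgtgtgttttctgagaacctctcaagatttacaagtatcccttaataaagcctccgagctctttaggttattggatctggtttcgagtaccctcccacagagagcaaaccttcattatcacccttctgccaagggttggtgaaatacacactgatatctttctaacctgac
*Cartpt*, chr13:100670639-100670888, minus strand: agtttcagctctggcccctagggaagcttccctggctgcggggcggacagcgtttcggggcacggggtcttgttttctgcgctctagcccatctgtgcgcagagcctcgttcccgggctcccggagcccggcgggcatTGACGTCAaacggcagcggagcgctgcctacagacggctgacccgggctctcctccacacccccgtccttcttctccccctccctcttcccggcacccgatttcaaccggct

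The letters searched on both strands were the CRE core TGACG, the full CRE TGACGTCA, which contains the core on both strands, the AP-1 element TGANTCA and the E-box CACGTG. The CRE core was in the promoter of 6 of the 9 genes (*Tac1*, *Cck*, *Vip*, *Cartpt*, *Adcyap1* and *Gal*) and in 20.8% of all 32851 promoter entries of the same length (250 bases before and 50 after the start). The full CRE was found only in *Cartpt* among the 9 genes, with its first base at position -112 from the start, and in 1.79% of all entries. The E-box was in *Tac1* and *Cck* and in 7.15% of all entries, and the AP-1 element, held by 7.81% of all entries, was in none of the 9. Neither *Pdyn* window, nor those of *Npy* and *Nmb*, held any of these letters. The stretches around the cores that lie before the start are shown with the core in capitals.
*Tac1*, chr6:7504844-7504888, plus strand: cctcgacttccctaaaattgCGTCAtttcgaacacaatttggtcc
*Tac1*, chr6:7504998-7505042, plus strand: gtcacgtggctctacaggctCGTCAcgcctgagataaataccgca
*Cck*, chr9:121404835-121404879, minus strand: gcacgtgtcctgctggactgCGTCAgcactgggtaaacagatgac
*Vip*, chr10:4707378-4707422, minus strand: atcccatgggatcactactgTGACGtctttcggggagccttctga
*Cartpt*, chr13:100670726-100670770, minus strand: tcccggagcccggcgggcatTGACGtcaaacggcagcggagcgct
*Adcyap1*, chr17:93598246-93598290, plus strand: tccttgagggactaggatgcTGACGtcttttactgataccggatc

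The *Gal* core lies after the start and is not shown. These matches describe letters and were not tested as binding sites.

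*Pdyn* was the highest of the 10 precursors at both glucose concentrations, per kilobase of span as well as per kilobase of exon. Its RPKM values were 1.88 and 1.41 at 2.8 mM glucose and 19.5 and 19.0 at 16.8 mM glucose. The groups did not overlap and lay far apart. The means were 1.65 ± 0.33 and 19.2 ± 0.31 RPKM (SD, n = 2), a ratio of 11.7 between the means. The reads behind them were 1334 and 890 at 2.8 mM and 14303 and 11697 at 16.8 mM, or 22.8 and 17.1 against 236 and 230 RPM. On the log2(RPKM + 0.5) scale the difference was 3.21 (SE 0.13), and in voom it was 3.55 (SE 0.12). It ranked number 5 among the 2387 genes with a higher value at 16.8 mM, out of 6845 genes that averaged 1 RPKM or more. With any 1 library left out of the limma fit the log2 difference stayed between 3.05 and 3.37.

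The table held an entry for each *Pdyn* start, and the stretch between the starts belongs to the upstream entry alone. This entry had 1.76 and 1.32 RPKM at 2.8 mM and 18.2 and 17.8 RPKM at 16.8 mM, a log2 difference of 3.19 against 3.21 for the downstream entry. It held 44, 29, 473 and 431 more reads than the downstream entry in the 2.8 mM replicates 1 and 2 and the 16.8 mM replicates 1 and 2. These were 3.19, 3.15, 3.2 and 3.55% of its reads, a like share at both concentrations. The entries held too many reads for whole reads to show their spans. The longer span, 13390 against 12110 bases, was therefore assigned to the entry with the lower RPKM. These shares and the naming of the upstream entry rest on that assignment. Nearly all reads were common to both entries, and the use of the starts cannot be read from these values beyond that share.

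Transcripts with a pattern most like that of *Pdyn* were sought by the Euclidean distance of their 4 values on the log2(RPKM + 0.5) scale, each centred on its own mean. The 5 nearest were *Ttyh1* (distance 0.11), *D030047H15Rik* (0.24), *C2cd4b* (0.25), *Fam46a* (0.32) and *Mir132* (0.33). *Ttyh1*, which encodes a membrane protein of the tweety family, had 0.51 and 0.388 RPKM at 2.8 mM and 7.92 and 8.02 RPKM at 16.8 mM. *C2cd4b* lay at a higher level, with 4.47 and 4.31 RPKM at 2.8 mM and 40.3 and 39.3 RPKM at 16.8 mM. *Mir132* was listed at 0 in both 2.8 mM libraries and had 3.55 and 4.54 RPKM at 16.8 mM. With 4 libraries in 2 groups, this likeness mainly says that the transcripts had a similar difference and closely matching replicates.

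**Figure D1:**
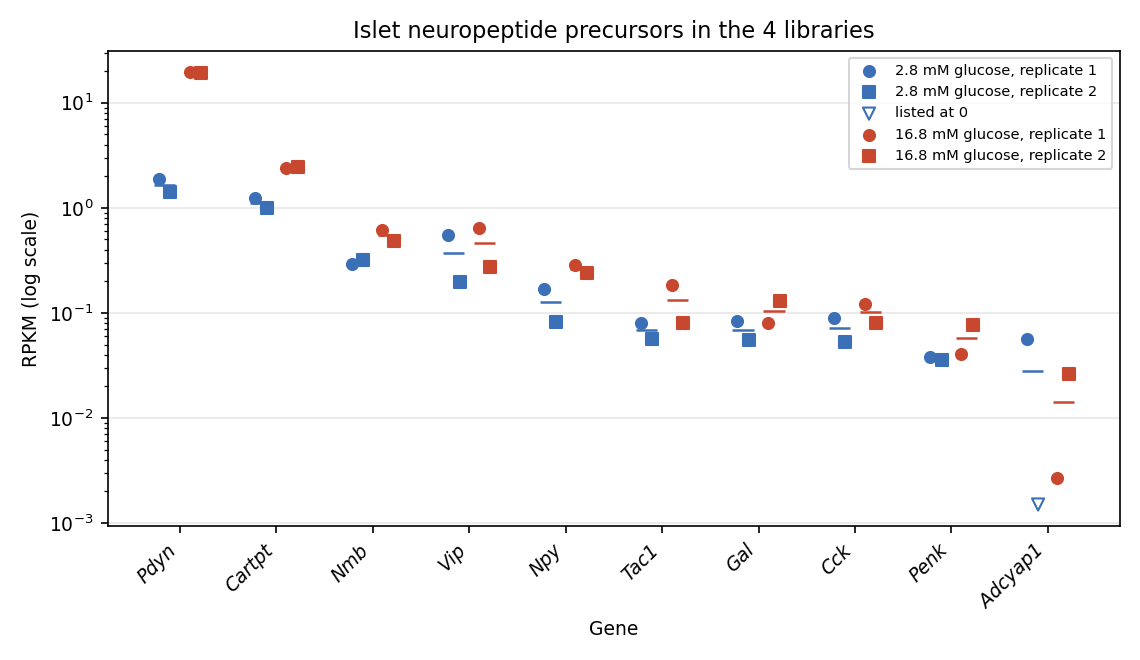
RPKM values on a log scale of the 10 neuropeptide precursors in each library (circles, replicate 1; squares, replicate 2; short lines, group means of 2 libraries; the open triangle stands for a value listed at 0, placed at the bottom). *Pdyn* went from 1.65 to 19.2 RPKM on average, *Cartpt* lay above 2 RPKM in both 16.8 mM libraries, and the other 8 genes stayed below 1 RPKM throughout.

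*Cartpt* encodes the precursor of CART, a peptide of hypothalamic neurons and of islet endocrine cells and nerves. It had 1.24 and 0.997 RPKM at 2.8 mM and 2.4 and 2.42 RPKM at 16.8 mM. Both 16.8 mM libraries lay above both 2.8 mM libraries, and the replicates at 16.8 mM were nearly equal. The reads were 160 and 114 against 321 and 271. *Cartpt* was the only one of the 9 precursors other than *Pdyn* that the main test took, and it rose, by 0.85 on the log2(RPKM + 0.5) scale (SE 0.1, limma, adjusted p = 0.0014), where 10.7% of the 7867 transcripts tested rose. In voom its log2 fold change was 1.11 (SE 0.19, adjusted p = 0.0001). Over the 19 alternatives that tested it (all but a minimum of 1 RPKM in every library, which it missed in 1 library) the log2 difference was 0.69 to 1.27 and the adjusted p at most 0.045.

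Among the 8 precursors below the minimum, 2 passed the voom test, both upwards, so that 3 of the 7 precursors other than *Pdyn* with enough reads rose and none fell. Of all 19093 transcripts in that fit, 13.5% rose. The median log2 fold change of the 7 was 0.85, against a median of -0.13 over all transcripts. The other 4 of the 7 had positive values that did not pass.

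*Npy*, the precursor of neuropeptide Y, a peptide of sympathetic nerves that also occurs in islet cells, had 0.169 and 0.0824 RPKM at 2.8 mM and 0.284 and 0.238 RPKM at 16.8 mM. The reads were 67 and 29 against 117 and 82. The groups did not overlap, although the 2.8 mM replicates differed 2.05-fold. *Npy* rose by 1.12 on the log2 scale (SE 0.31, voom, adjusted p = 0.0059). This call rested on the second 2.8 mM library, since without it the log2 fold change was 0.63 with an adjusted p of 0.28, whereas without any other library the adjusted p was 0.0046 to 0.029.

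*Nmb*, which encodes neuromedin B, a relative of bombesin, had 0.29 and 0.319 RPKM at 2.8 mM and 0.61 and 0.486 RPKM at 16.8 mM. Its reads numbered 48 and 47 against 105 and 70. The groups did not overlap. *Nmb* rose by 0.85 on the log2 scale (SE 0.27, voom, adjusted p = 0.017). The call was kept only without 16.8 mM replicate 2 (adjusted p = 0.016) and was lost without any other library, with adjusted p of 0.13 to 0.23 and log2 fold changes of 0.67 to 0.91. Reads of the stretch shared with *Sec11a* may be among these counts.

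*Tac1*, the precursor of substance P and neurokinin A of sensory nerves, had 0.0801 and 0.056 RPKM at 2.8 mM and 0.183 and 0.0797 RPKM at 16.8 mM. The first 16.8 mM library, with 88 reads against 23 to 37 in the other 3, stood above the rest, and the groups overlapped. The voom log2 fold change was 0.87 (SE 0.38, adjusted p = 0.072), and it was 0.24 without that library and 1.43 (adjusted p = 0.0023) without 16.8 mM replicate 2.

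*Gal*, the precursor of galanin, an inhibitor of insulin secretion, had 22 and 13 reads at 2.8 mM against 22 and 30 at 16.8 mM, or 0.0829, 0.0551, 0.0798 and 0.13 RPKM. Its groups overlapped, with a voom log2 fold change of 0.55 (SE 0.39, adjusted p = 0.28). *Cck*, the precursor of cholecystokinin, had 31 and 16 reads at 2.8 mM against 43 and 24 at 16.8 mM, or 0.0903, 0.0525, 0.121 and 0.0805 RPKM. Its groups overlapped as well, with a log2 fold change of 0.51 (SE 0.37, adjusted p = 0.29). For neither gene was a change detectable with these reads and libraries.

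*Vip*, the precursor of vasoactive intestinal peptide of parasympathetic nerves, varied more between replicates than between concentrations. Its reads were 270 and 85 at 2.8 mM and 327 and 117 at 16.8 mM, or 0.55, 0.195, 0.641 and 0.274 RPKM. The first replicate exceeded the second 2.82-fold at 2.8 mM and 2.34-fold at 16.8 mM. The voom log2 fold change was 0.36 (SE 0.36, adjusted p = 0.44) and turned negative without 2.8 mM replicate 2 (-0.36) or 16.8 mM replicate 1 (-0.28). Without 2.8 mM replicate 1 it was 1.13 (adjusted p = 0.015) and without 16.8 mM replicate 2 it was 0.94 (adjusted p = 0.0086).

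Genes of nerves and vessels were read beside *Vip*. *Prph*, an intermediate filament of peripheral neurons, showed the same order, with a first replicate 4.37-fold above the second at 2.8 mM and 2.26-fold above it at 16.8 mM (54, 11, 46 and 17 reads). *Kdr*, an endothelial receptor, differed 1.54-fold and 1.45-fold in the same direction, and *Cpa1*, an enzyme of acinar cells, in the opposite direction (0.326-fold and 0.456-fold). The alpha cell marker *Gcg* and the precursors *Pdyn*, *Npy*, *Cck* and *Tac1* were also higher in the first replicate at both concentrations. Whether nerve or ganglion tissue taken along with the islets had a part in the *Vip* values was not tested.

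**Figure D2:**
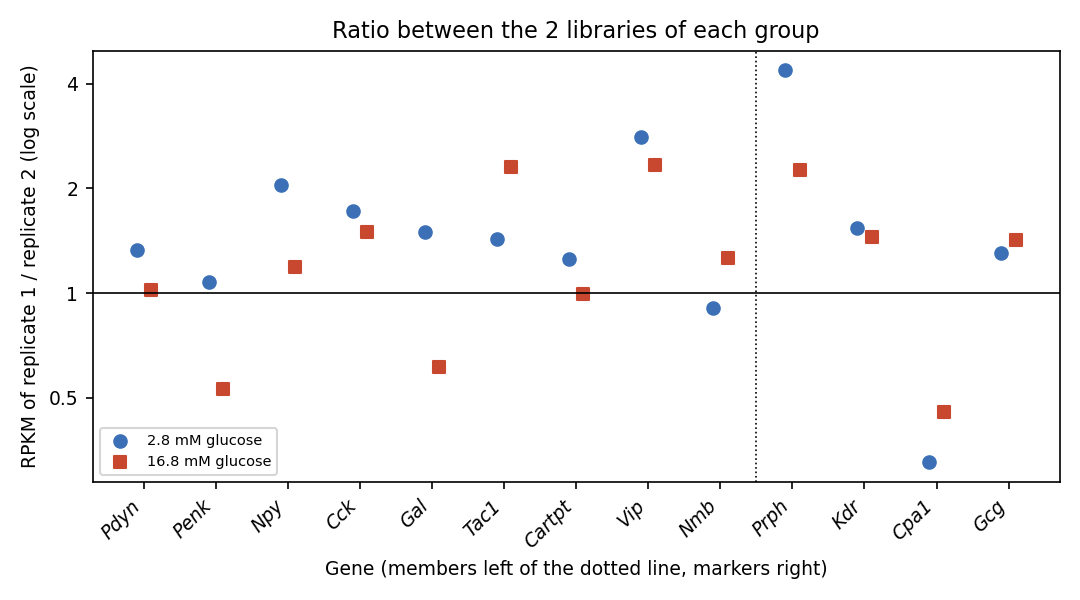
Ratio of the RPKM value of replicate 1 to that of replicate 2 on a log scale, for 9 precursors (left of the dotted line; *Adcyap1* is left out because it was listed at 0 in 1 library) and 4 markers (right), with 1 point for each glucose concentration. *Vip* (2.82 and 2.34) and *Prph* (4.37 and 2.26) lay above 1 at both concentrations. So did *Npy* (2.05 and 1.19), *Cck* (1.72 and 1.5), *Tac1* (1.43 and 2.3), *Kdr* (1.54 and 1.45) and *Gcg* (1.3 and 1.42). *Pdyn* (1.33 and 1.02) and *Cartpt* (1.25 and 0.991) lay closer to 1 than *Vip* and *Prph*.

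*Penk* and *Adcyap1* were near the limit of detection. *Penk*, the precursor of the enkephalins, had 11 and 9 reads at 2.8 mM against 12 and 19 at 16.8 mM. *Adcyap1*, which encodes PACAP, had 20 reads in the first 2.8 mM library, 0 in the second, and 1 and 8 at 16.8 mM. The count of 0 allows up to 0.0577 RPM (3 reads), which, like all such limits, covers counting error only. Neither gene was tested by voom, and in limma without a minimum neither passed (adjusted p = 0.44 and 0.79), where 9.13% of 28047 transcripts did (2.96% higher and 6.17% lower at 16.8 mM).

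Both 16.8 mM libraries lay above both 2.8 mM libraries in *Cartpt*, *Npy*, *Nmb* and *Penk*, which is 4 of the 9 precursors other than *Pdyn*, against 23.7% of the 21698 transcripts that averaged 5 reads or more. None of the 9 showed the opposite order, which 43.4% of those transcripts did. The p-values measure only the spread between 2 libraries a group from 1 pool of islets, which may be technical.

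**Figure D3:**
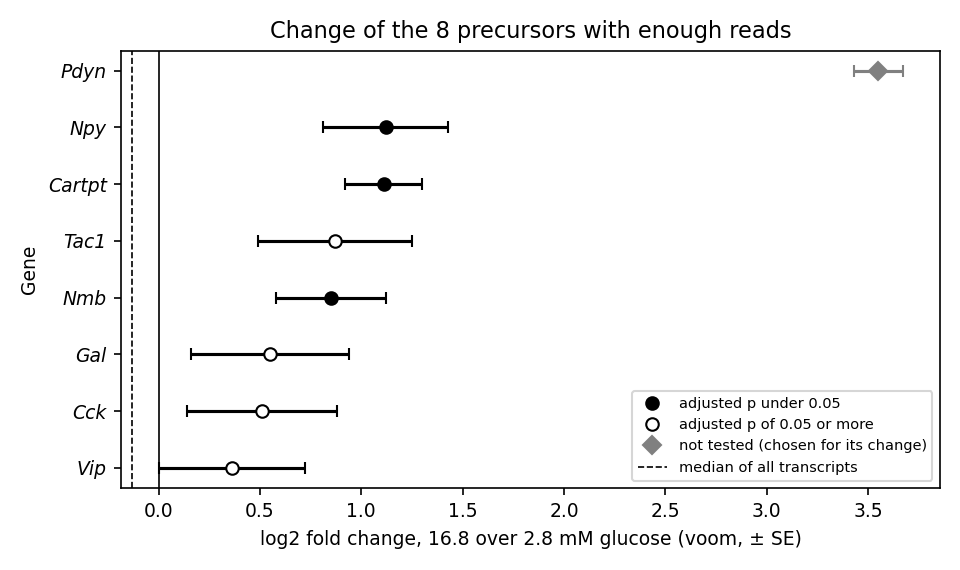
Log2 fold change from 2.8 to 16.8 mM glucose (voom, bars ± SE) of the 8 precursors averaging 20 reads or more, with filled circles for an adjusted p under 0.05, open circles for the others and a grey diamond for *Pdyn*, which was not tested. The dashed line is the median of all transcripts, -0.13. *Npy*, *Cartpt* and *Nmb* passed, and the calls of *Npy* and *Nmb* were lost when certain single libraries were left out.

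The order of the levels depended on the length used. Per kilobase of span, the order at 2.8 mM ran *Pdyn*, *Cartpt*, *Vip*, *Nmb*, *Npy*, *Cck*, *Gal*, *Tac1*, *Penk* and *Adcyap1*. The libraries of *Vip* overlapped those of *Nmb*, *Npy*, *Cck* and *Gal* each overlapped the next in the order, and *Penk* overlapped *Adcyap1*. Per kilobase of exon, *Npy* passed *Nmb* at 2.8 mM and was the third at 16.8 mM with a mean of 3.13 (RPKM recomputed on exon length), after *Pdyn* with 96 and *Cartpt* with 6.08. *Vip* (2.52) and *Nmb* (2.2) followed, and the libraries of *Npy*, *Vip* and *Nmb* overlapped from each to the next. *Pdyn* stood at 8.24 on this scale at 2.8 mM, where its libraries did not overlap those of *Cartpt* (2.82).

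The 10 precursors together took 2000 and 1226 reads at 2.8 mM against 15339 and 12350 at 16.8 mM, or 34.2 and 23.6 against 253 and 243 RPM. Without *Pdyn*, the other 9 took 11.4 and 6.47 RPM at 2.8 mM and 17.1 and 12.9 at 16.8 mM. Both 16.8 mM sums of the 9 exceeded both 2.8 mM sums, with 12.9 and 11.4 as the nearest pair, and the largest contributor was *Vip* in both first replicates and *Cartpt* in both second replicates.

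Receptors for the peptides of these precursors were read from a list of 19 genes. The main test took 3 of them, *Galr3*, *Galr1* and *Vipr1*. The last 2 reached the minimum only through their 16.8 mM values, so no count is drawn from this test. In voom 3 of 9 rose and 2 fell, where 13.5% of all transcripts rose and 29.0% fell. The median log2 fold change of the 9 was 0.38, against -0.13 over all transcripts.

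*Galr3*, a galanin receptor, had the highest RPKM of the list, 5.9 and 4.93 at 2.8 mM and 6.13 and 7.92 at 16.8 mM, with a log2 difference of 0.34 (SE 0.15, limma, adjusted p = 0.12). *Galr1*, which couples to inhibitory G proteins, had 0.835 and 0.849 RPKM at 2.8 mM and 1.7 and 1.6 at 16.8 mM. It rose by 0.97 on the log2 scale (SE 0.12, voom, adjusted p = 1.7e-06). *Galr2* went from 29 and 23 reads to 203 and 111 reads and rose by 2.52 on the log2 scale (SE 0.31, voom, adjusted p = 2.7e-06). All 3 galanin receptors had both 16.8 mM libraries above both 2.8 mM libraries, an order shown by 23.7% of the 21698 transcripts that averaged 5 reads or more.

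The receptors for VIP moved in opposite directions. *Vipr1*, a receptor for VIP and PACAP that raises cyclic AMP, had 0.807 and 0.741 RPKM at 2.8 mM and 1.5 and 1.65 at 16.8 mM. It rose by 1.02 on the log2 scale (SE 0.1, voom, adjusted p = 2.1e-07). *Vipr2*, the other receptor that binds both peptides, went from 1016 and 869 reads to 101 and 94 reads, or from 0.254 and 0.244 RPKM to 0.0243 and 0.027 RPKM. It fell by 3.28 on the log2 scale (SE 0.18, voom, adjusted p = 3.9e-11), and this call was kept without any 1 of the libraries. *Adcyap1r1*, the receptor that prefers PACAP, had 22 and 14 reads against 23 and 30 and did not pass (voom, adjusted p = 0.28).

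Of the opioid receptors, only *Oprm1* had more than 12 reads in any library. *Oprk1*, the receptor preferred by dynorphins, had 0 reads in 3 libraries and 1 read in the second 16.8 mM library, and a count of 0 allows up to 0.0513, 0.0577 and 0.0494 RPM in the 3. *Oprm1* had 832 and 610 reads at 2.8 mM and 482 and 426 at 16.8 mM over a long gene, or 0.0509 and 0.042 against 0.0284 and 0.03 RPKM. It fell by 0.67 on the log2 scale (SE 0.14, voom, adjusted p = 0.00068), a call lost without 2.8 mM replicate 1 (-0.53, adjusted p = 0.093). *Oprd1* had 6 to 12 reads a library and was not tested.

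The remaining receptors gave no call. *Cckar*, a receptor for cholecystokinin, had 74 and 162 reads at 2.8 mM and 103 and 183 at 16.8 mM (voom, log2 fold change 0.31, adjusted p = 0.49). It was higher in the second replicate of each group, the order of the acinar markers. *Tacr3* had 259 and 181 against 348 and 231 reads (voom, log2 fold change 0.38, adjusted p = 0.1). The neuropeptide Y receptors *Npy1r*, *Npy2r* and *Npy5r* had at most 4 reads in any library, and the other receptors of the list at most 19.

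**Figure D4:**
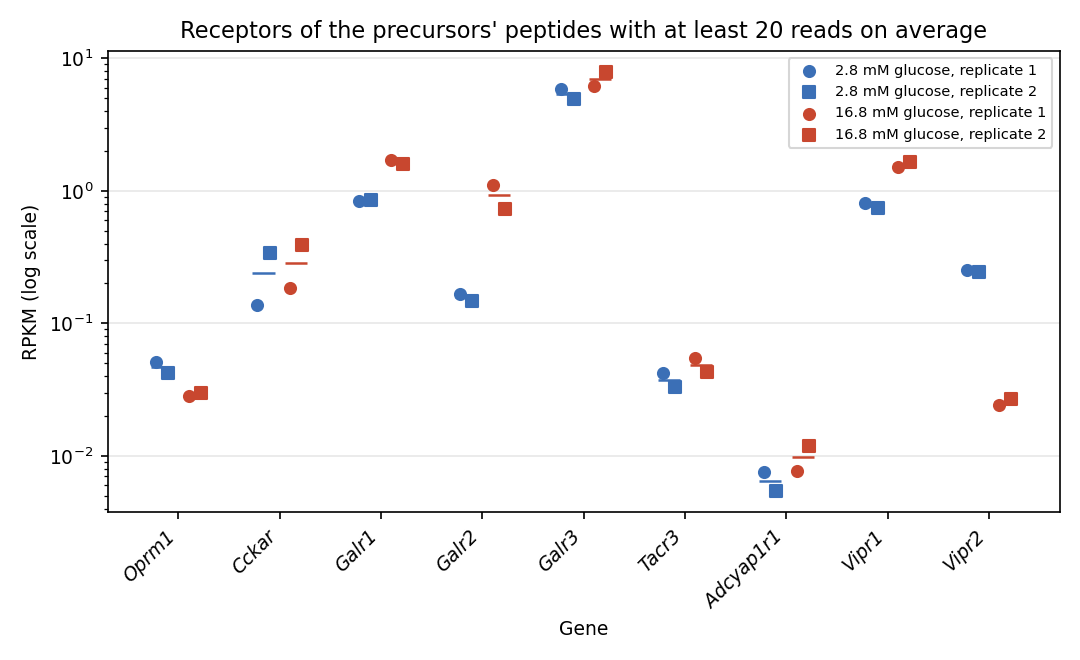
RPKM values on a log scale of the 9 receptors averaging 20 reads or more, in each library (circles, replicate 1; squares, replicate 2; short lines, group means of 2 libraries). *Galr1*, *Galr2* and *Vipr1* lay higher in both 16.8 mM libraries, *Vipr2* and *Oprm1* lay lower, and *Cckar* followed the replicate number instead.

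Enzymes that turn precursors into peptides formed a list of 13. In the main test 3 of the 9 that reached the minimum rose, 1 fell and 5 did not pass, where 10.7% of all transcripts rose and 22.8% fell, with a median log2 difference of 0.27 against -0.11 over all transcripts. In voom 5 of 13 rose and 2 fell, where 13.5% of all transcripts rose and 29.0% fell.

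*Pcsk1*, the convertase PC1/3, had 2.6 and 2.4 RPKM at 2.8 mM and 9.18 and 10.9 RPKM at 16.8 mM and rose by 1.81 on the log2(RPKM + 0.5) scale (SE 0.12, limma, adjusted p = 0.00018). *Pcsk2*, the convertase PC2, which releases dynorphins from their precursor, had 6.12 and 5.94 against 9.35 and 9.1 RPKM and rose by 0.58 (SE 0.1, limma, adjusted p = 0.0068). *Pam*, which amidates the ends of peptides such as neuropeptide Y, galanin and VIP, had 1.94 and 1.82 against 3.97 and 3.76 RPKM and rose by 0.87 (SE 0.09, limma, adjusted p = 0.00091). The groups did not overlap in any of the 3.

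*Cpe*, the carboxypeptidase that trims the cut ends, had 19.2 and 17.2 RPKM at 2.8 mM and 20.4 and 18.9 RPKM at 16.8 mM (limma, log2 difference 0.11, adjusted p = 0.53). *Scg5*, the chaperone of PC2, had 10.6 and 9.26 against 12 and 10.7 RPKM (limma, log2 difference 0.18, adjusted p = 0.29). *Cpd*, a carboxypeptidase of the trans-Golgi network, fell by 0.33 (SE 0.08, limma, adjusted p = 0.021), from 1.9 and 1.79 to 1.4 and 1.32 RPKM. The *Cpd* call was lost without 2.8 mM replicate 1 (adjusted p = 0.11) or 16.8 mM replicate 2 (adjusted p = 0.067). *Pcsk6*, the convertase PACE4, fell from 2687 and 2364 reads to 1049 and 856 reads (voom, log2 fold change -1.42, SE 0.1, adjusted p = 2.2e-09).

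**Figure D5:**
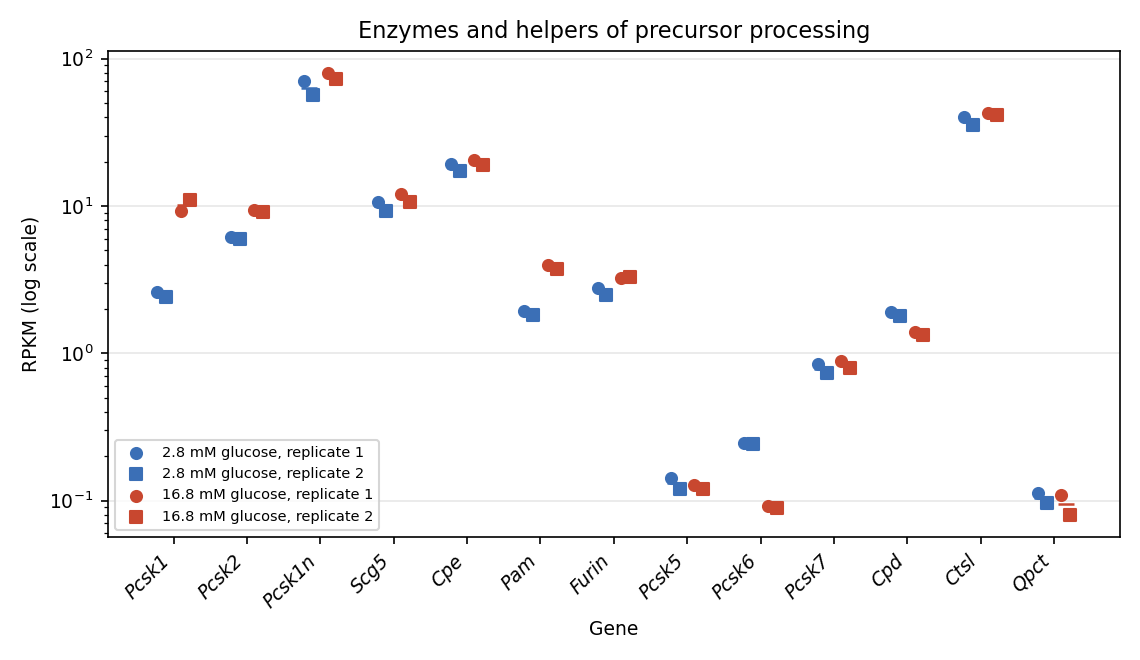
RPKM values on a log scale of the 13 genes of precursor processing in each library (circles, replicate 1; squares, replicate 2; short lines, group means of 2 libraries). *Pcsk1*, *Pcsk2* and *Pam* lay higher and *Cpd* and *Pcsk6* lower in both 16.8 mM libraries, whereas the groups of *Cpe* overlapped and those of *Scg5* nearly touched (10.6 and 10.7 RPKM).

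Other peptide precursors were read from lists of 47 genes, which hold islet hormones, gut peptides and relatives of the opioid and tachykinin precursors. Of these, 8 reached the minimum, *Adm* only through its 16.8 mM values, so no count is drawn from the main test. In voom 9 of 19 rose and none fell, where 13.5% of all transcripts rose and 29.0% fell, with a median log2 fold change of 0.43 against -0.13 over all transcripts. *Adm*, the precursor of adrenomedullin, rose from 0.398 and 0.788 to 2.88 and 2.3 RPKM (voom, log2 fold change 2.22, SE 0.26, adjusted p = 1.2e-06). In limma without a minimum *Adm* did not pass (adjusted p = 0.063). *Vgf*, a granule protein that yields several peptides, rose from 28.1 and 23.4 to 63.8 and 59.4 RPKM (limma, log2 difference 1.25, SE 0.14, adjusted p = 0.0014). *Iapp*, the precursor of amylin, rose by 0.93 (limma, adjusted p = 0.0016), a call lost under quantile normalization (0.57, adjusted p = 0.21) and without a minimum (adjusted p = 0.13). Quantile normalization holds back changes of genes at the highest ranks, and with median centring the *Iapp* difference was 1.01. *Ucn3*, which encodes urocortin 3 of beta cells, rose by 0.59 (limma, adjusted p = 0.024), a call lost without 16.8 mM replicate 2 (0.44, adjusted p = 0.15), under quantile normalization (0.63, adjusted p = 0.054) and without a minimum (adjusted p = 0.12).

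Of the relatives of *Pdyn* and *Penk*, *Pomc*, the precursor of beta-endorphin and melanocortins, had 146 and 106 reads at 2.8 mM and 209 and 172 at 16.8 mM. It rose by 0.59 on the log2 scale (SE 0.2, voom, adjusted p = 0.024), a call lost without any 1 library (adjusted p = 0.062 to 0.34). *Pnoc*, the precursor of nociceptin, had 62 and 44 against 77 and 58 reads and did not pass (voom, log2 fold change 0.34, adjusted p = 0.34). *Gast*, the precursor of gastrin and a relative of *Cck*, rose from 33 and 28 to 77 and 77 reads (voom, log2 fold change 1.31, SE 0.3, adjusted p = 0.0015).

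Regulators of neuropeptide genes formed a list of 11, of which 3 reached the minimum, *Crem* and *Sik1* only through their 16.8 mM values, so no count is drawn from this test. *Crem*, which encodes both activators and the repressor ICER at CRE sites, rose from 0.89 and 0.815 to 3.88 and 3.54 RPKM (voom, log2 fold change 2.12, SE 0.09, adjusted p = 1.6e-12). *Sik1*, a kinase that holds CREB coactivators out of the nucleus and is itself a CREB target, rose from 0.971 and 0.779 to 2.66 and 2.48 RPKM (voom, log2 fold change 1.56, SE 0.13, adjusted p = 7.6e-09). *Crtc2*, such a coactivator, fell from 3.79 and 3.61 to 2.58 and 2.45 RPKM (limma, log2 difference -0.48, SE 0.09, adjusted p = 0.0082).

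In voom 3 of the 11 rose and 6 fell, where 13.5% of all transcripts rose and 29.0% fell, with a median of -0.25 against -0.13 over all transcripts. The number that passed was 4 in place of 9 without 2.8 mM replicate 1, and likewise 4 without 2.8 mM replicate 2. *Npas4*, an activity-dependent transcription factor, was the third that rose, from 50 and 28 to 123 and 90 reads (log2 fold change 1.46, SE 0.29, voom, adjusted p = 0.00042). *Creb1* fell by 0.25 on the log2 scale (SE 0.09, voom, adjusted p = 0.038), and this call was lost without any 1 library. *Kcnip3*, which encodes DREAM, a repressor first described at *Pdyn*, had 721 and 487 reads at 2.8 mM and 648 and 388 at 16.8 mM and did not pass (voom, log2 fold change -0.25, adjusted p = 0.24).

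Cell type markers were summed in RPKM for each library. The 6 beta cell markers reached 21300 and 19100 at 2.8 mM and 41000 and 38100 at 16.8 mM, and 5 of the 6 rose in limma, where 10.7% of all transcripts did. Only 2 of the 6 passed under quantile normalization, where *Ins1* had a log2 difference of 0.54 (limma, adjusted p = 0.32) and *Ins2* of 0.0, and only 2 passed without a minimum. Quantile normalization gives equal ranks the same value in every library, so a gene that keeps its rank near the top cannot show a change there. With median centring the log2 differences were 1.85 for *Ins1* and 0.84 for *Ins2*, and without the 10 most abundant genes 1.81 and 0.8. The sums of the alpha markers were 2170 and 1670 against 2110 and 1490, those of the delta markers 598 and 447 against 703 and 695, and those of the exocrine markers 94.7 and 273 against 229 and 473. The beta, alpha and delta sums were mostly hormone RNA. In 2.8 mM replicate 1 *Ins2* had 18136, *Ins1* 3113, *Gcg* 2155 and *Sst* 587 RPKM. Of the other delta markers, *Hhex* had a log2 difference of 0.0 and *Rbp4* of 0.27, and neither passed in limma. The 4 endothelial markers summed to 1.11 to 2.16 and the 9 neural and glial markers read here to 3.59 to 4.39, of which *Th*, present in some beta cells as well as in nerves, rose (limma, log2 difference 0.58, adjusted p = 0.0043), and no marker was at 0 in all libraries. In voom 3 of the 4 endothelial markers and all 6 exocrine markers rose, where 13.5% of all transcripts did, but no exocrine marker passed in limma. *Cpa1*, *Ctrb1*, *Prss2* and *Amy2a5* lost the voom call without 2.8 mM replicate 1 (log2 fold changes of 0.19 to 0.3) or 16.8 mM replicate 2 (0.46 to 0.52), and *Cdh5*, an endothelial cadherin, lost it without 2.8 mM replicate 2 (0.32) or 16.8 mM replicate 1 (0.4). The part of any of these cell types in the values of the neuropeptide precursors was not tested.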

How the data were processed

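RNA-seq values of 4 islet libraries were analysed. The authors deposited 1 table of RPKM values with 33923 entries, and all 4 columns of sample values were used. The submitters' processing notes name STAR, bedtools, DESeq and mm9, and the methods name bedtools counts over RefSeq exons for the sorted cells without describing the islet libraries apart. Identical entries were used once, which left 28047 transcripts. Depth (50790000 to 60690000 reads) and reads were reconstructed from the steps of low values and the genomic spans, known for 99.1% of transcripts, and both the depth and the 2 libraries a group limit the precision. Groups came from the sample labels.

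The 2 groups were compared with limma 3.58.1 in R 4.3.3 on log2(RPKM + 0.5), using empirical Bayes moderation with a variance trend, and p-values were adjusted by Benjamini-Hochberg at 0.05 over the 7867 transcripts averaging 1 RPKM or more. The fit was tested on simulated data. Alternatives were no trend, 0.1 or 1 RPKM added, no minimum, at least 1 RPKM in each of the libraries, quantile normalization, median centring, scaling without the 10 most abundant genes, all entries, the replicate block, voom on reconstructed reads (mean of at least 20, 19093 transcripts) with and without the block, and each library left out. Leaving out libraries in voom was added after seeing the data. Other steps used Python 3.11.15, pandas 2.3.3, numpy 2.4.6, scipy 1.17.1 and matplotlib 3.10.9.

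The precursors and all gene lists were chosen with earlier results of these data known. The rule named all 10 precursors, genes of the lists past the threshold first and then those averaging 1 RPKM or more, and the 5 transcripts nearest to *Pdyn*. Receptors and regulators below these limits were named after their values were seen. Promoter sequences are those of RefSeq (GRCm38), matched letter by letter to NCBIM37. The values of 1 marker gene are not reported here.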

Additional observations from a re-analysis of the deposited data

How the results depend on the processing

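Of 7867 transcripts, 2628 passed (838 higher and 1790 lower, 31.9% of them higher), against 4067 with the replicate block, 8114 of 19093 in voom and 10896 in voom with the block. The share of higher calls was 42.3% under quantile normalization and 44.1% with median centring. It was 42.5% without 2.8 mM replicate 1 and 42.0% without 16.8 mM replicate 2, and with any 1 library left out 1825 to 2579 transcripts passed. A minimum of 1 RPKM in every library removes genes that were low in 1 group by construction, and it left 0 of the 9 precursors other than *Pdyn*, 1 receptor and 1 regulator as calls. In voom, which took more genes, 3 precursors, 5 receptors, 7 processing genes, 9 other precursors and 9 regulators passed. *Gal*, *Adcyap1r1* and *Npff* entered voom only through their 16.8 mM values, and none of them passed. The main test passed 1 precursor and 4 processing genes. No main-test count is given for the other lists, where some genes reached the minimum only through their 16.8 mM values. Median centring gave 8 processing genes, and the cause was not tested.

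With any 1 library left out of limma or voom, 1 to 5 precursors, 2 to 7 receptors, 3 to 6 processing genes, 4 to 9 other precursors and 3 to 9 regulators passed. Without 2.8 mM replicate 2 the voom log2 fold changes of *Cartpt*, *Npy*, *Nmb* and *Vip* were 0.95, 0.63, 0.91 and -0.36. Without 16.8 mM replicate 2 they were 1.1, 1.24, 1.0 and 0.94 in the same order. *Cartpt* passed under every alternative that tested it, with log2 differences of 0.69 to 1.27, and *Pdyn* stayed between 2.94 and 3.76. No result changed direction past the threshold, and *Nucb2*, not past it at -0.09, lay at 0.0 under quantile normalization.

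Whether the replicate numbers stand for a pairing is not given and cannot be settled with 2 pairs from 1 pool. Same-numbered libraries did deviate alike from their group means (correlation 0.31 over 7867 transcripts). The block raised the calls in limma from 2628 to 4067. With the replicate block in voom 4 precursors (*Tac1* added, adjusted p = 0.016), 7 receptors, 9 processing genes, 10 other precursors and 10 regulators passed. The block in limma moved the counts of precursors and of processing genes by no more than 1.5 times.

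Precursors below 20 reads, *Penk* and *Adcyap1*, were too shallow for voom. Reads shared by overlapping genes could not be split, and values divided by genomic span set long genes low.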
